A study of Mus musculus with 12 samples.

Results

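Receptors for GABA (gamma-aminobutyric acid) of the A type and the cotransporters that set the chloride gradient across the neuronal membrane were followed in neonatal mouse cortex after deletion of histone H3.3. The set is a list of gene names, chosen with earlier results of these data known and with no threshold on measured values. It holds 8 genes: the α subunit genes Gabra2, Gabra3, Gabra4 and Gabra5, the β subunit genes Gabrb1 and Gabrb2, and the chloride cotransporter genes Slc12a2 and Slc12a5. All 8 were found among the 51912 gene lines of the count files, and all 8 were among the 11076 genes that passed the filter on low counts.

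RNA was taken from whole cortex at postnatal day 0 (P0) and sequenced in 12 libraries, 4 per group. Control libraries carried the label "control" and no further genotype. In the group called dKO-N ("H3.3 Neurod6 dKO") the H3.3 genes H3f3a and H3f3b were deleted with Neurod6-Cre, a driver active in postmitotic excitatory neurons. In the group called dKO-E ("H3.3 Emx1 dKO") the same genes were deleted with Emx1-Cre, a driver active from cortical progenitors onward. All 3 groups share the tissue, the age and the library method (ClickSeq, in which adapters are joined to terminated cDNA by click chemistry, on RNA depleted of ribosomal RNA). The labels give neither strain nor sex, nor do they say whether controls carried Cre or floxed alleles. Neither driver acts in cortical interneurons, which migrate in from outside the cortex, so every library also holds RNA from cells that were not targeted.

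GABA-A receptors are pentameric chloride channels built mainly from α, β and γ subunits. The α subunit sets much of the receptor's affinity, kinetics and position at or outside the synapse, and fetal and neonatal cortex is known for α2, α3 and α5 receptors. Whether an open channel lets chloride in or out depends on the cotransporters: NKCC1, the product of Slc12a2, brings chloride into the cell, and KCC2, the product of Slc12a5, extrudes it. Immature cortical neurons are known for much NKCC1 and little KCC2, a state in which GABA depolarises.

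The libraries held 722080 to 3502017 counts in genes, with dKO-N 1 the shallowest and dKO-N 4 the deepest. H3f3a did not follow every label. It stood at 17.7 and 16.4 CPM (counts scaled to library size, with TMM factors) in the libraries labelled control 1 and control 3, at 117 and 121 CPM in control 2 and 4, and at 22.1 to 37.8 CPM in the 8 knockout libraries. Directions below are therefore between libraries as labelled, and members whose call ended without control 1 and 3 are given with that value. The other targeted gene, H3f3b, did not fall either. It stood at 121 and 142 CPM in control 1 and 3 and at 76.7 and 84.2 CPM in control 2 and 4. In dKO-N it stood at 111 to 146 CPM (log2 0.16, edgeR adjusted p = 0.583). Every dKO-N library was above control 2 and 4, and control 1 and 3 lay inside the dKO-N range. In dKO-E H3f3b stood at 167 to 180.1 CPM, higher than control (log2 0.69, adjusted p = 7.07e-04), against the direction of a deletion. Reads from parts of the genes outside the deleted stretch cannot be told apart here. Y-linked genes gave 1035 and 274 counts in dKO-E 3 and 4 and 0 to 3 in the other 10 libraries, so sex was not balanced between groups. Neurod6, a marker of excitatory neurons, ran from 132 to 154 CPM in the control libraries. It ran from 55.1 to 62.6 CPM in dKO-N and from 66.1 to 80.5 CPM in dKO-E. Neurod6 is also the driver gene of dKO-N, and the part of the Cre allele in its level there was not tested.

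The start regions of the members that carry the main results are shown first, because deposition of H3.3 is known at promoters and gene bodies. Each line gives the 250 bases before an annotated start (RefSeq, GRCm38.p6), 5′ to 3′ on the gene's own strand, with CG dinucleotides, the sites of CpG methylation, in capitals. The table held 12 such windows for 7 of the 8 members.
Gabra2, chr5:71095850-71096099, minus strand: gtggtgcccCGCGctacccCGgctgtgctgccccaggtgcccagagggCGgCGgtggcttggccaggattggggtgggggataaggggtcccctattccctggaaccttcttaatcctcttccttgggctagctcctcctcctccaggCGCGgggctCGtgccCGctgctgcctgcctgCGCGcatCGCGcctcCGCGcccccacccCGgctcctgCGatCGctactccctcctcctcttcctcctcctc
Gabra5, chr7:57510060-57510309, minus strand: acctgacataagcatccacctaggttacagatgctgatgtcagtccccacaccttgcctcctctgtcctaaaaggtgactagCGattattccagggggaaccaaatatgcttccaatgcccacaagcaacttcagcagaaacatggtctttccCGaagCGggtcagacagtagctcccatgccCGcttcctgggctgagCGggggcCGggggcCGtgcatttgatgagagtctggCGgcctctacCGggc
Gabra3, chrX:72656808-72657057, minus strand, the downstream of its starts: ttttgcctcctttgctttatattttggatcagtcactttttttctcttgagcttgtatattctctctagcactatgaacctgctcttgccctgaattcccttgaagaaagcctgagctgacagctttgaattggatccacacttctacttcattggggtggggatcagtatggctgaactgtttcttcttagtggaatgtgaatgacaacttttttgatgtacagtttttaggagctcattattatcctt
Slc12a5, chr2:164960596-164960845, plus strand, the upstream of its starts: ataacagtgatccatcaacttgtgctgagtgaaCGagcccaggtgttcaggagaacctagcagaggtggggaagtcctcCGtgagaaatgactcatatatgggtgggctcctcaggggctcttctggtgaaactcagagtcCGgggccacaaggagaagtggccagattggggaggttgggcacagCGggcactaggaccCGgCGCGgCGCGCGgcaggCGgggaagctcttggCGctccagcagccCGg
Slc12a5, chr2:164967738-164967987, plus strand, the downstream of its starts: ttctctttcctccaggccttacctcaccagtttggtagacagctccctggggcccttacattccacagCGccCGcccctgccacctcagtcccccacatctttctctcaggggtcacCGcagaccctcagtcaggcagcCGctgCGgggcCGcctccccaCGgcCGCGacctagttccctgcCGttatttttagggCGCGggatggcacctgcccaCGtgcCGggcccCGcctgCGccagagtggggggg
Gabra2, which rose, and Gabra3 and Gabra5, which fell, began in windows of unlike base composition. The Gabra2 window held 18 CG dinucleotides and the Gabra5 window 9, whereas neither Gabra3 window held any. Gabrb1, which fell, had windows with 18 and 6, and whether the count goes with direction was not tested. The windows of Slc12a5 held 13 and 16. Over all 32851 windows of this length in the table the median was 6, 92.1% held at least 1, and 21.7% held as many as the Gabra2 window. The letters CANNTG (an E-box, the core that basic helix-loop-helix factors such as the Neurod family bind, read the same on both strands) occurred once in the Gabra2 window, 2 times in that of Gabra5 and in neither Gabra3 window. They occurred in 66.2% of all windows, so their presence sets no member apart.

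The α subunit genes moved in opposite directions. Gabra2 rose in both knockouts, Gabra3 and Gabra5 fell in both, and Gabra4 rose in dKO-E. In dKO-N against control 5 of the 8 members passed the test (1 higher, 4 lower), where 11.3% of all genes tested did (5.04% higher, 6.29% lower). In dKO-E against control 7 of 8 passed (2 higher, 5 lower), where 20.2% of all genes did (10.1% higher, 10.1% lower). The median log2 fold change of the 8 was -0.37 in dKO-N and -0.34 in dKO-E, against 0.01 in each for all genes. Because the members were chosen with earlier results of these data known, these counts and medians are a description and test no excess over all genes. Both comparisons share the control libraries. In whole tissue, fewer cells of a type and less RNA per cell cannot be told apart.

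**Figure D1:**
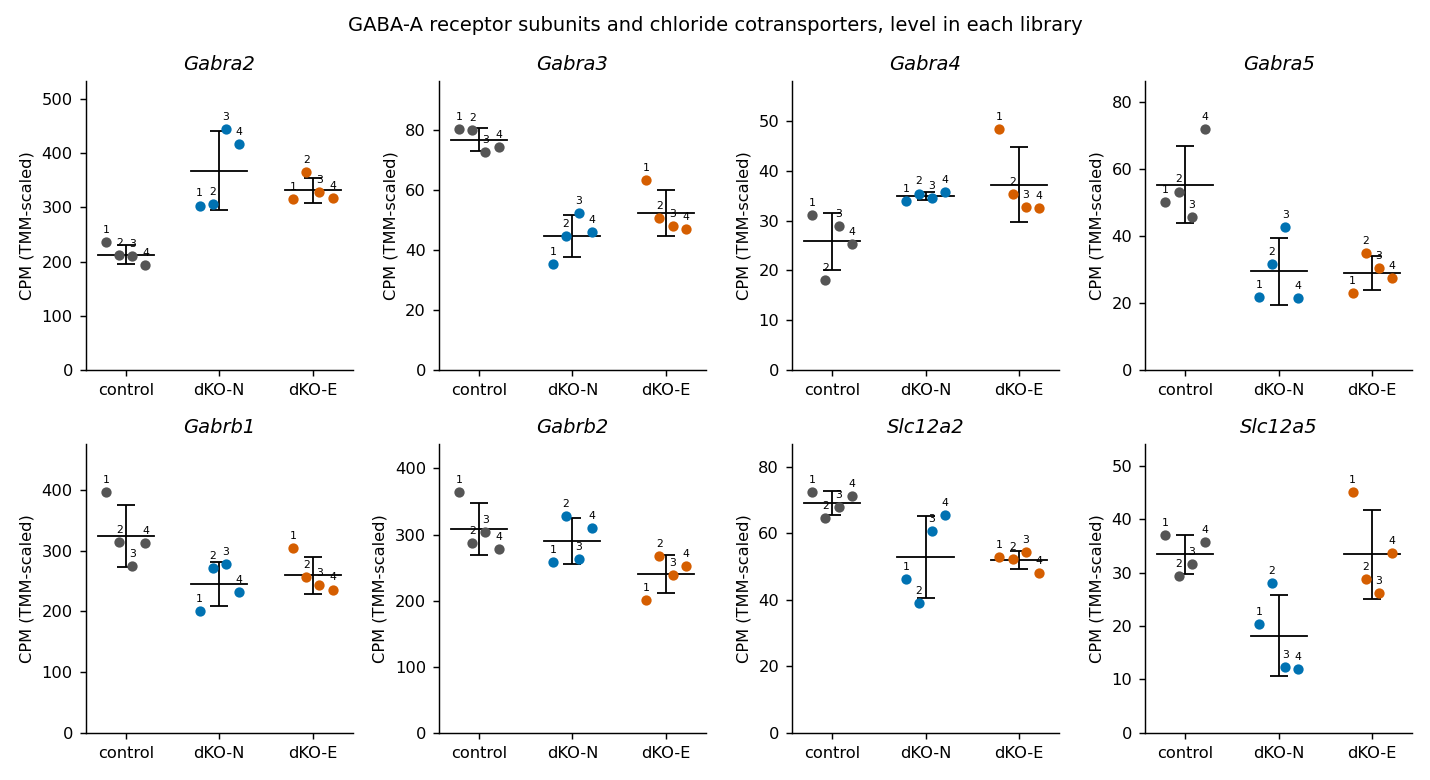
Level of each member in CPM (TMM-scaled, vertical axes from 0) in the 12 libraries, with the library number beside each point and the group mean ± SD (n = 4) as a line and bar. For Gabra2 all 8 knockout points lie above the control points, and for Gabra3 and Gabra5 all 8 lie below them.

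Gabra2 encodes the α2 subunit, which is enriched at synapses on the axon initial segment. Gabra2 was measured at 236, 212, 209.5 and 194 CPM in control 1 to 4, with 303, 307, 444 and 416 CPM in the dKO-N libraries 1 to 4 and 316, 364, 328 and 317 CPM in the dKO-E libraries 1 to 4. Every knockout library was above every control library, and within dKO-N libraries 3 and 4 were higher than 1 and 2. The rise was 1.73-fold in dKO-N (log2 0.79, SE 0.11, edgeR adjusted p = 7.69e-07) and 1.55-fold in dKO-E (log2 0.64, SE 0.10, adjusted p = 1.57e-05). Gabra2 was the only member called higher in both knockouts, and the calls held in all 21 alternative analyses.

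Gabra5 encodes the α5 subunit of receptors that lie largely outside synapses and carry tonic inhibition. Gabra5 stood at 50.1, 53.2, 45.8 and 71.8 CPM in control 1 to 4, with 21.8, 31.7, 42.7 and 21.6 CPM in the dKO-N libraries 1 to 4 and 22.9, 34.9, 30.5 and 27.4 CPM in the dKO-E libraries 1 to 4. No knockout library reached the control range, with dKO-N 3 the nearest to it. Gabra5 fell by 1.00 on the log2 scale in dKO-N (SE 0.19, edgeR adjusted p = 2.43e-04) and by 0.90 in dKO-E (SE 0.17, adjusted p = 1.39e-04). Part of its span is also annotated on the opposite strand, as are parts of Gabra3, Gabra4 and Gabrb1. The sources used here do not say whether strand was used in counting, so the counts of all these genes are uncertain.

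Gabra3 encodes the α3 subunit, typical of fetal and neonatal cortex. Gabra3 was measured at 80.2, 79.9, 72.6 and 74.4 CPM in control 1 to 4, with 35.4, 44.8, 52.4 and 46.0 CPM in the dKO-N libraries 1 to 4 and 63.4, 50.6, 48.1 and 47.0 CPM in the dKO-E libraries 1 to 4. The control libraries lay close together and above all knockout libraries. Gabra3 fell by 0.77 on the log2 scale in dKO-N (SE 0.13, edgeR adjusted p = 6.34e-05) and by 0.57 in dKO-E (SE 0.12, adjusted p = 6.04e-04). The falls of Gabra3 and Gabra5, like the rise of Gabra2, passed in all 21 alternatives in both knockouts.

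Gabra4 encodes the α4 subunit, another subunit of extrasynaptic receptors and the lowest of the 4 α genes in control. It stood at 31.1, 18.1, 28.9 and 25.3 CPM in control 1 to 4, with 34.0, 35.4, 34.5 and 35.8 CPM in the dKO-N libraries 1 to 4 and 48.3, 35.2, 32.8 and 32.4 CPM in the dKO-E libraries 1 to 4. All 8 knockout libraries were above the control libraries, and dKO-E 1 was the highest. Gabra4 rose in dKO-E (log2 0.48, SE 0.17, edgeR adjusted p = 0.0340). In dKO-N the log2 difference of 0.42 (SE 0.18, adjusted p = 0.142) did not pass the test. These values rest on 25 to 119 counts per library, and the call in dKO-E was lost in 6 of the 21 alternatives, among them without control 2 (adjusted p = 0.159) and without dKO-E 1 (0.157).

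The β subunit genes fell by less than Gabra3 or Gabra5 on the log2 scale. Gabrb1, which encodes β1, was measured at 397, 314, 274 and 313 CPM in control 1 to 4, with 200.0, 271, 278 and 232 CPM in the dKO-N libraries 1 to 4 and 304, 256, 243 and 236 CPM in the dKO-E libraries 1 to 4. Both knockout groups overlapped the control range, in which control 1 was high. Gabrb1 fell by 0.41 on the log2 scale in dKO-N (SE 0.11, edgeR adjusted p = 0.0129) and by 0.33 in dKO-E (SE 0.11, adjusted p = 0.0283). Without control 1 neither fall passed (dKO-N adjusted p = 0.0902, dKO-E 0.190), nor without control 1 and 3 (0.0906 and 0.170). The dKO-E fall was lost in 9 of the 21 alternatives and the dKO-N fall in 4. In dKO-E these included library totals (edgeR adjusted p = 0.193), DESeq2 (adjusted p = 0.0524) and Y-linked counts as a covariate (edgeR adjusted p = 0.324).

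Gabrb2 encodes the β2 subunit. It stood at 364, 286, 304 and 278 CPM in control 1 to 4, with 258, 328, 263 and 310.0 CPM in the dKO-N libraries 1 to 4 and 200.5, 268, 239 and 252 CPM in the dKO-E libraries 1 to 4. The dKO-N range overlapped that of the controls, whereas all 4 dKO-E libraries were below it. Gabrb2 fell in dKO-E by 0.36 on the log2 scale (SE 0.10, edgeR adjusted p = 0.00881). In dKO-N the log2 difference was -0.08 (95% interval -0.29 to 0.13, adjusted p = 0.722). The dKO-E fall was lost in 4 of the 21 alternatives. These were without control 1 and 3 (edgeR adjusted p = 0.262), without control 1 alone (0.077), with library totals (0.069) and with thinned libraries (0.0626).

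Of the cotransporter genes, Slc12a5 fell in dKO-N and Slc12a2 fell in dKO-E, and only Slc12a5 was called between the knockouts. Slc12a5, which encodes the neuronal chloride extruder KCC2, was measured at 37.1, 29.3, 31.5 and 35.6 CPM in control 1 to 4, with 20.4, 28.0, 12.4 and 12.0 CPM in the dKO-N libraries 1 to 4 and 45.1, 28.8, 26.2 and 33.6 CPM in the dKO-E libraries 1 to 4. The 4 dKO-N libraries lay below every control library, dKO-N 2 only just, and the dKO-E libraries spread around the control values. Slc12a5 fell by 0.99 on the log2 scale in dKO-N (SE 0.23, edgeR adjusted p = 0.00222, 0.502-fold). In dKO-E its log2 difference from control was -0.04 (95% interval -0.41 to 0.33, adjusted p = 0.912).

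The difference between the knockouts was itself tested. In dKO-E against dKO-N Slc12a5 was 1.94-fold higher (log2 0.95, SE 0.23, edgeR adjusted p = 0.00931), although dKO-N 2 overlapped the dKO-E range. It was the 1 member of 8 called in this comparison, in which 6.84% of all genes were called (3.11% higher, 3.73% lower). Slc12a5 had few counts in dKO-N (15, 30, 9 and 40 in libraries 1 to 4), and both calls rest on dKO-N 4. Without that library the log2 change against control was -0.67 (adjusted p = 0.0671) and the difference between knockouts was 0.62 (adjusted p = 0.170). Without dKO-E 1, the highest library, the difference was 0.80 and passed (adjusted p = 0.0356).

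Slc12a2 encodes the chloride importer NKCC1, present in progenitors and glia as well as in neurons. It stood at 72.4, 64.4, 67.8 and 71.3 CPM in control 1 to 4, with 46.3, 39.2, 60.6 and 65.5 CPM in the dKO-N libraries 1 to 4 and 52.9, 52.3, 54.3 and 48.1 CPM in the dKO-E libraries 1 to 4. The dKO-E libraries were tightly grouped below the controls, while dKO-N was split, with libraries 1 and 2 low and library 4 inside the control range. Slc12a2 fell in dKO-E by 0.41 on the log2 scale (SE 0.13, edgeR adjusted p = 0.0191). In dKO-N the log2 difference was -0.33 (95% interval -0.60 to -0.05, adjusted p = 0.127). Without dKO-N 4 it was -0.54 and passed (adjusted p = 0.0159). The dKO-E fall was lost in 6 of the 21 alternatives. It did not pass without control 1 and 3 (edgeR adjusted p = 0.150), without control 1 alone (0.0596) or without dKO-E 4 (0.0614). Nor did it pass with library totals (0.0999), thinned libraries (0.147) or Y-linked counts as a covariate (0.117).

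The balance of the pair within a library was described by the log2 ratio of Slc12a2 to Slc12a5, without a test. The ratio was 0.97, 1.14, 1.10 and 1.00 in control 1 to 4, 1.18, 0.49, 2.29 and 2.45 in dKO-N 1 to 4, and 0.23, 0.86, 1.05 and 0.52 in dKO-E 1 to 4. Control libraries were nearly equal (1.05 ± 0.08, SD, n = 4), dKO-N libraries were not (1.60 ± 0.93), and the dKO-E libraries lay at 0.67 ± 0.36. The dKO-N libraries 3 and 4, which were high in this ratio, were also the high dKO-N libraries for Gabra2.

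**Figure D2:**
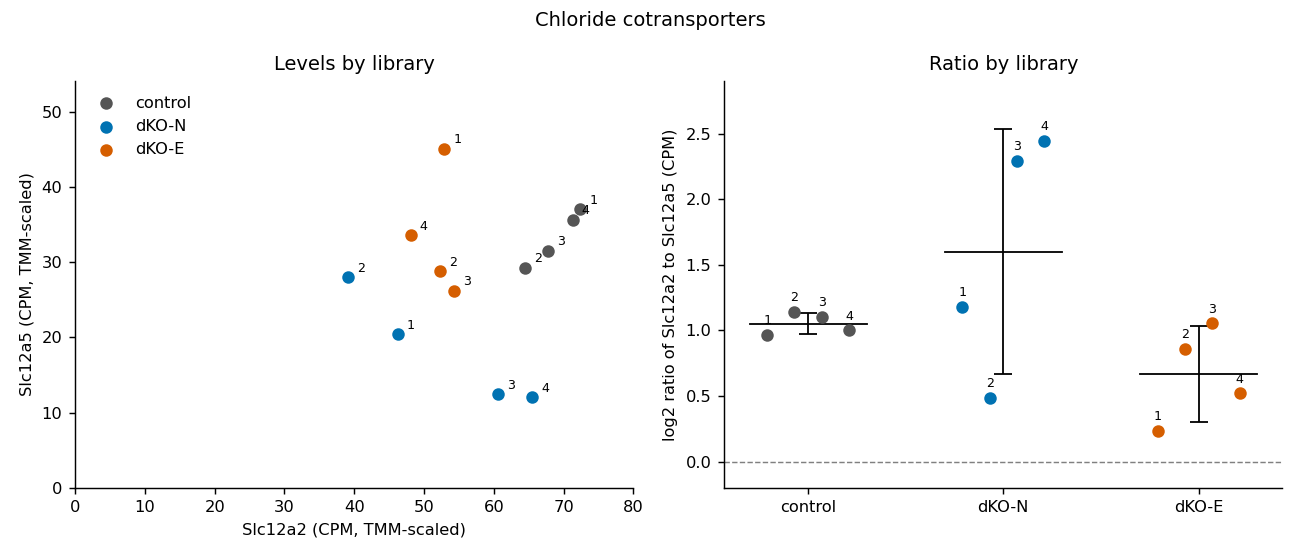
Left, Slc12a5 against Slc12a2 in CPM for each of the 12 libraries, numbered. Right, the log2 ratio of Slc12a2 to Slc12a5 by library with the group mean ± SD (n = 4). The control ratios lie between 0.97 and 1.14, while those of dKO-N run from 0.49 to 2.45.

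The dKO-N libraries also differed in how counts were spread over short and long genes. For the 2191 genes of at least 100 kb, the median log2 deviation from the control mean was -0.09, -0.09, 0.01 and 0.12 in dKO-N 1 to 4. For the 3836 genes under 20 kb it was 0.09, 0.11, 0.01 and -0.12. Slc12a5, the shortest member, spans 38.9 kb and the others 68.1 to 491 kb. With this trend removed from each library, Slc12a5 was still called in dKO-N (log2 -1.01, edgeR adjusted p = 0.00148). The dKO-N 4 library held more RNA of striatal markers (summed level 166 CPM, against 57.9 to 70.9 in the other 3 and 102 to 129 in controls), and its part in these values was not tested.

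**Figure D3:**
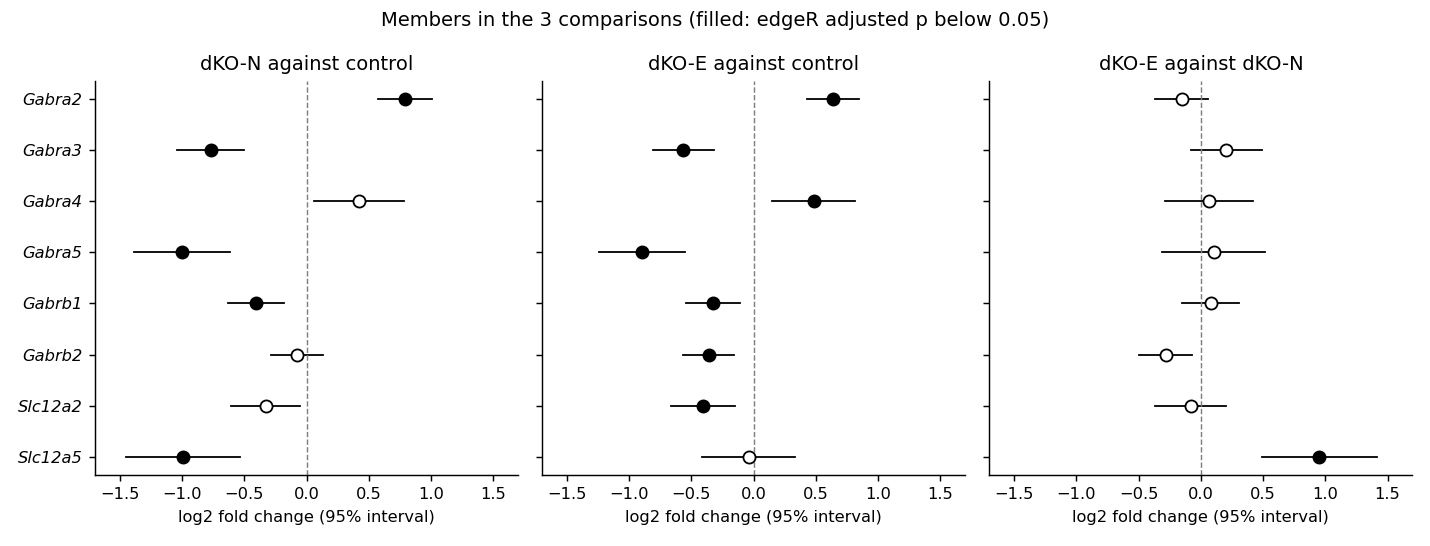
Log2 fold change of each member with its 95% interval in the 3 comparisons. Filled points passed the test at an adjusted p below 0.05: 5, 7 and 1 of the 8 members, with Gabra2 to the right of 0 in both comparisons with control.

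Between the knockouts the other 7 members were not called. Their log2 differences in dKO-E against dKO-N ran from -0.28 for Gabrb2 (95% interval -0.49 to -0.07, edgeR adjusted p = 0.0946) to 0.20 for Gabra3 (interval -0.08 to 0.49, adjusted p = 0.414). For Gabra2 the difference was -0.15 (interval -0.37 to 0.06) and for Gabra5 0.10 (interval -0.31 to 0.52). For Slc12a2 it was -0.08 (interval -0.37 to 0.20, edgeR adjusted p = 0.785). The intervals of Gabra2, Gabra3, Gabra5 and Slc12a2 hold differences in either direction, and that of Gabrb2 lies below 0.

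Levels of different genes were compared per kilobase of exon, in the control libraries. By this length Gabrb2 was the highest member at 48.5 CPM per kb (range 43.7 to 57.3). Next came Gabra2 at 27.9 (25.4 to 30.9) and Gabrb1 at 23.4 (19.8 to 28.7), whose ranges overlap. Gabra3 at 19.6 (18.5 to 20.4) and Gabra5 at 18.6 (15.4 to 24.2) overlapped each other, and both also overlapped Gabrb1. Slc12a2 followed at 6.32 (5.90 to 6.63), then Slc12a5 at 4.48 (3.93 to 4.98) and Gabra4 at 4.25 (2.98 to 5.11), and these last overlapped each other. The order depends on the length used. Per kilobase of the whole gene only Gabra4 kept its rank, at the bottom, and Gabra2 and Gabrb2 led with 1.54 and 1.47 CPM per kb. Whether reads in introns were counted is not given in the sources used here, and only 6.65% to 8.94% of reads fell in no feature. Neither order can therefore be preferred.

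Most GABA-A subunit genes lie in clusters, and neighbours in a cluster did not always share a direction. In the chromosome 5 cluster (1398.0 kb), Gabra2 (70957597 to 71095849, mm10, minus strand) rose in both knockouts while Gabrb1 (71658113 to 72149037, plus strand) fell in both. Gabra4 (71569749 to 71658308, minus strand) lies between them and overlaps the start of Gabrb1 head to head by 196 bp. Gabrg1, the fourth gene of that cluster and a γ subunit of low level (13.2 CPM in control), fell in dKO-N (log2 -1.06, edgeR adjusted p = 0.0491), a call lost in 13 of 20 alternatives.

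Gabra5 lies on chromosome 7 (57407672 to 57510059, minus strand), beside the γ subunit gene Gabrg3. Gabrg3 stood at 365 CPM in control, and its log2 differences were -0.02 (dKO-N, edgeR adjusted p = 0.927) and 0.02 (dKO-E, adjusted p = 0.911), whereas Gabra5 fell in both knockouts. Gabrb2 lies on chromosome 11 (42419757 to 42629028, plus strand). Gabra3 (72432681 to 72656848, minus strand) belongs to a cluster on the X chromosome (586.6 kb) whose other genes, Gabre and Gabrq, did not pass the filter.

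**Figure D4:**
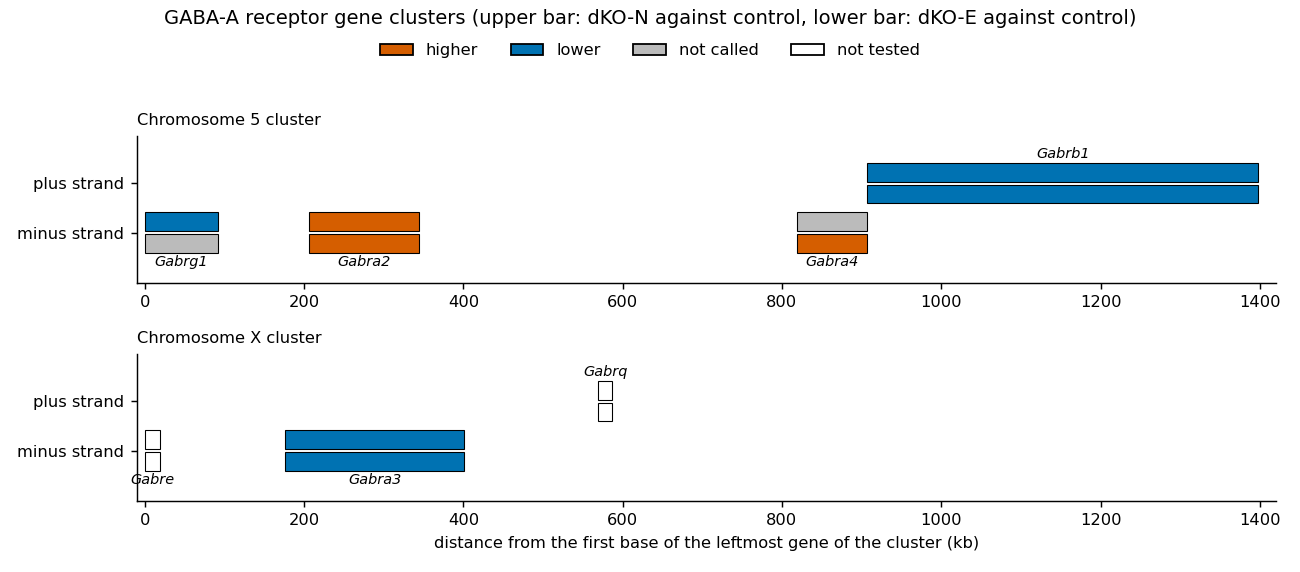
GABA-A subunit genes drawn to scale in their clusters on chromosomes 5 and X, by distance in kb from the first base of the leftmost gene and by strand. In each gene the upper bar gives the call in dKO-N against control and the lower bar that in dKO-E (orange higher, blue lower, grey not called, white not tested). On chromosome 5 Gabra2 is orange and Gabrb1 blue in both comparisons, and on the X chromosome Gabra3 is blue in both.

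Genes of GABA supply did not pass, where 11.3% of all genes tested were called in dKO-N, 20.2% in dKO-E and 6.84% between knockouts. Among so few genes a count of 0 does not set the list apart. Of 9 listed for GABA synthesis, packaging, uptake and breakdown, 7 were tested and 0 were called by edgeR in any of the 3 comparisons (also 0 by DESeq2, and 1, 1 and 0 at an unadjusted p under 0.05), with median log2 differences of 0.07 in dKO-N and 0.03 in dKO-E. Gad1, which encodes a GABA-synthesising enzyme, stood at 56.2 ± 4.0 CPM in the control libraries, at 60.9 ± 13.3 CPM with Neurod6-Cre and at 63.2 ± 12.8 CPM with Emx1-Cre (SD, n = 4). Its log2 difference was 0.19 in dKO-N (95% interval -0.11 to 0.49) and 0.15 in dKO-E (interval -0.13 to 0.44). Gad2, the other such enzyme, stood at 116, 120.2 and 120.0 CPM in the same order.

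Markers of interneurons, the cells that make most cortical GABA, summed to 1445 to 1721 CPM in control, 1467 to 1748 in dKO-N and 1346 to 1558 in dKO-E over 16 genes. Of the 14 tested, 1 was higher and 1 lower in dKO-N, and 1 higher and 2 lower in dKO-E. These counts are near the shares of all genes called, 11.3% in dKO-N (5.04% higher, 6.29% lower) and 20.2% in dKO-E (10.1% higher, 10.1% lower). Markers of excitatory neurons, over 10 genes, summed to 2912 to 3362 CPM in control, 2054 to 2759 in dKO-N and 1376 to 1804 in dKO-E, with Neurod1 listed at 0 in every library. Both knockout ranges were below control, and the dKO-E range below that of dKO-N. Of the 9 tested, 1 was higher and 2 lower in dKO-N, and 1 higher and 4 lower in dKO-E. Neurod6, the driver gene of dKO-N, is one of these markers and was lower in both knockouts. Radial glia markers, over 8 genes with Sox2 at 0, summed higher in the knockouts (361 to 436 CPM in dKO-N and 329 to 406 in dKO-E) than in control (265 to 321), with 3 of 5 tested markers higher in dKO-N and 1 in dKO-E. The part of these marker levels in the changes of the receptor and cotransporter genes was not tested.

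Other sources of RNA stood out in single libraries. Meningeal markers summed to 90.8 CPM in dKO-E 1 and 32.4 in dKO-E 2, against 9.59 to 14.5 in control, and striatal markers to 142 CPM in dKO-E 1. Choroid plexus markers, from a tissue rich in NKCC1, were at most 11.8 CPM, in dKO-E 1. Astrocytes and oligodendrocytes also hold NKCC1. Astrocyte markers summed to 37.3 to 51.1 CPM in control, 50.5 to 72.1 in dKO-N and 56.7 to 79.0 in dKO-E, and oligodendrocyte lineage markers to 98.5 to 115, 68.5 to 96.6 and 81.8 to 94.7 CPM. Without dKO-E 1 the log2 change of Slc12a2 in dKO-E was -0.42 (edgeR adjusted p = 0.0302). Without dKO-E 4 it was -0.38 and did not pass (adjusted p = 0.0614). The part of these RNA sources in the Slc12a2 values was not tested.

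The calls among metabotropic GABA-B receptor genes were on auxiliary subunits. Of 6 listed, 5 were tested, and by edgeR as by DESeq2 0 rose and 1 fell in dKO-N and 1 rose and 2 fell in dKO-E. At an unadjusted edgeR p under 0.05, 0 were higher and 3 lower in dKO-N, and 1 higher and 4 lower in dKO-E. Over all genes 11.3% and 20.2% were called. The subunit genes Gabbr1 and Gabbr2 were not called in either knockout (edgeR adjusted p = 0.106 to 0.177), at 244 and 348 CPM in control. The auxiliary subunits are KCTD proteins. Kctd16 stood at 106 to 153 CPM in control, 104 to 150.3 in dKO-N and 175 to 214 in dKO-E; it rose in dKO-E (log2 0.63, adjusted p = 4.97e-05) and was higher there than in dKO-N (log2 0.64, adjusted p = 9.00e-04). Kctd8 fell in both knockouts (dKO-N log2 -0.68, adjusted p = 0.0343; dKO-E log2 -0.60, adjusted p = 0.0284), calls lost in 9 and 11 of 21 alternatives, and Kctd12 fell in dKO-E (log2 -0.50, adjusted p = 0.00109).

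At the inhibitory postsynapse, 24 of 25 listed genes were tested, of which 0 rose and 2 fell in dKO-N and 1 rose and 5 fell in dKO-E by edgeR. DESeq2 called 0 higher and 1 lower in dKO-N, and 1 higher and 3 lower in dKO-E. At an unadjusted edgeR p under 0.05, 3 were higher and 3 lower in dKO-N, and 3 higher and 9 lower in dKO-E. Over all genes 11.3% were called in dKO-N and 20.2% in dKO-E, shares near those of this list. Gphn, which encodes the receptor scaffold gephyrin, was not called (dKO-N log2 -0.23, edgeR adjusted p = 0.137; dKO-E log2 -0.25, adjusted p = 0.0567). Mdga2, whose protein binds neuroligins and restrains synapse formation, fell from a control level of 1483 ± 140.4 CPM to 1168 ± 105 CPM with Neurod6-Cre and 893 ± 36 CPM with Emx1-Cre (SD, n = 4; log2 -0.34, adjusted p = 0.00887, and -0.73, adjusted p = 7.55e-08). Hap1, which encodes a partner of GABA-A receptors and kinesin in transport to the membrane, was measured at 7.77 to 13.4 CPM in control, 8.41 to 22.4 in dKO-N and 22.3 to 59.4 in dKO-E. It rose in dKO-E (log2 1.69, adjusted p = 4.22e-04), with dKO-E 1, the library high in striatal and meningeal markers, the highest. Trak1, an adaptor of the same transport system, fell in dKO-E (log2 -0.37, adjusted p = 0.00252, and 0.0691 with Y-linked counts as a covariate), as did Gabarap, whose product binds γ subunits (log2 -0.64, adjusted p = 0.0300, lost in 9 of 21 alternatives). Trak2, a relative of Trak1, fell in dKO-N (log2 -0.38, adjusted p = 0.0293), a call also lost in 9.

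Glycine receptors are the other fast chloride channels of immature cortex. Of 5 listed genes 3 were tested. Glra2, which encodes the α2 subunit of the fetal form, stood at 110 to 149 CPM in control, 168 to 208 in dKO-N and 193 to 241 in dKO-E. The groups did not overlap with control, and Glra2 rose in dKO-N (log2 0.53, edgeR adjusted p = 6.78e-04) and in dKO-E (log2 0.67, adjusted p = 5.60e-06), in all 21 alternatives. Glrb, the β subunit gene, fell in dKO-E (log2 -0.42, adjusted p = 0.0254), a call lost in 8 alternatives.

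Among 25 other genes of chloride transport and its control, 19 were tested: 2 rose and 2 fell in dKO-N, and 2 rose and 3 fell in dKO-E (1 and 1, and 1 and 2, by DESeq2). Over all genes 11.3% and 20.2% were called. Slc12a7 encodes KCC4, a potassium chloride cotransporter outside the neuronal type. It was measured at 8.27 to 14.4 CPM in control, 16.5 to 28.6 in dKO-N and 19.5 to 26.3 in dKO-E. It rose in dKO-N (log2 1.04, edgeR adjusted p = 0.00129) and dKO-E (log2 1.15, adjusted p = 8.23e-05), from 12 to 76 counts per library, in all 21 alternatives. Slc12a4, which encodes KCC1, rose in dKO-E from 4.10 to 9.30 CPM (log2 1.10, adjusted p = 0.0279), and Slc12a8 rose in dKO-N (log2 0.74, adjusted p = 0.0283); these were lost in 6 of 20 and 8 of 21 alternatives.

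The genes of this list that fell were a partner of KCC2 and anion exchangers. Neto2, whose protein binds KCC2, stood at 280 to 340.1 CPM in control, 249 to 355 in dKO-N and 195 to 237 in dKO-E. It fell in dKO-E (log2 -0.48, edgeR adjusted p = 4.25e-04) and was lower there than in dKO-N (log2 -0.45, adjusted p = 0.00586). Slc4a8, a sodium-driven chloride bicarbonate exchanger, fell in dKO-E (log2 -0.51, adjusted p = 0.00270) and in dKO-N (log2 -0.40, adjusted p = 0.0446), the latter lost in 12 of 21 alternatives. Clcn4, a chloride proton exchanger of endosomes, fell in dKO-N (log2 -0.43, adjusted p = 0.0221). Without control 1 and 3, the list genes named here whose calls against control were lost were Gabrg1, Kctd8 (in both knockouts), Mdga2 (in dKO-N), Gabarap, Trak2, Glrb, Slc12a8 and Clcn4, with adjusted p from 0.0564 to 0.257. Oxsr1, a kinase that acts on NKCC1 and KCC2, is listed at 0 in every library.

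**Figure D5:**
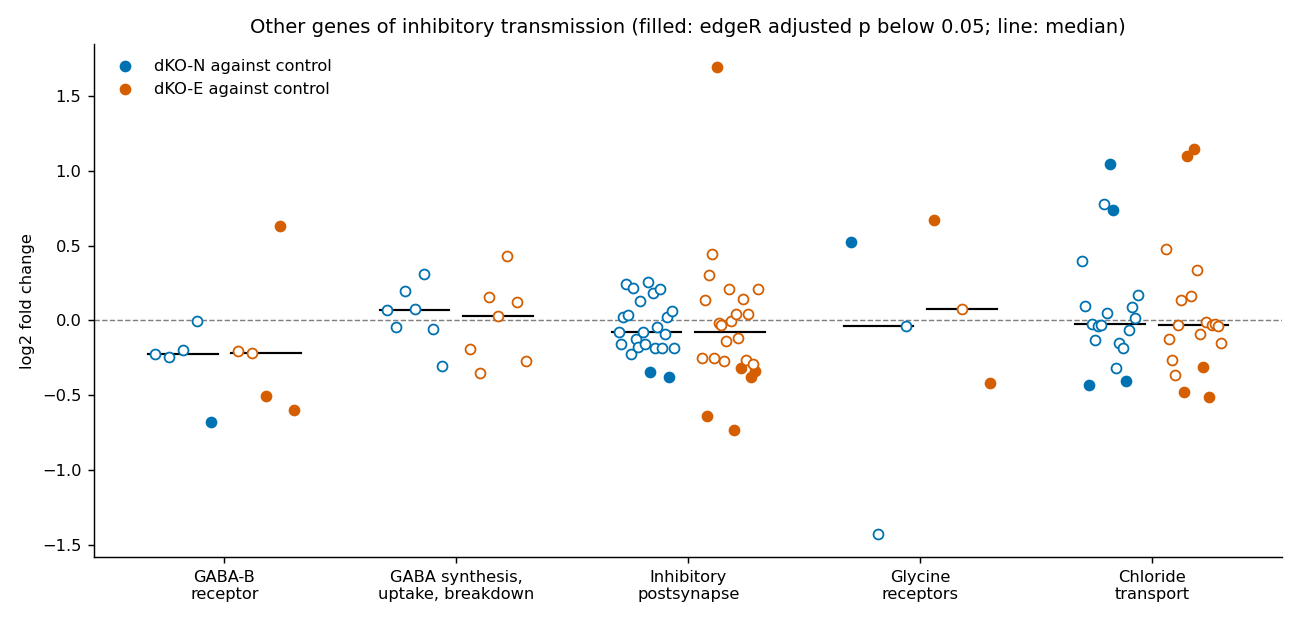
Log2 fold change against control of every tested gene in the 5 gene lists described here, blue for dKO-N and orange for dKO-E, filled where the adjusted p was below 0.05, with the list's median as a black line. No point is filled among the genes of GABA synthesis, uptake and breakdown, while Slc12a7 and Glra2 give filled points above 0 in both comparisons.

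The genes most alike to each cotransporter over the 12 libraries were found among 9754 genes by Pearson correlation of log2 CPM, as a description. For Slc12a2 they were Msra (r = 0.951), Erc2 (0.934) and Jmjd1c (0.926). With group means removed these correlations were 0.894, 0.948 and 0.842, so the likeness included the spread within groups, in which dKO-N 1 and 2 were low and 4 was high. Msra, a long gene for a methionine sulfoxide reductase, averaged 916 CPM over the control libraries, 623 over dKO-N and 587 over dKO-E. For Slc12a5 they were Mtpn (r = 0.895), Camk2n2 (0.894) and Prelid1 (0.891), with 0.768, 0.783 and 0.799 once group means were removed. Camk2n2, an inhibitor of the kinase CaMKII, averaged 9.27 CPM over the control libraries, 4.74 over dKO-N and 7.91 over dKO-E. All these points share their libraries, and so their depth and composition.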

How the data were processed

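The authors deposited 1 file of raw, whole-number gene counts per library; per the submitters' processing notes the tools were STAR, UMI-tools and HTSeq, on mm10. For versions, annotation, counting options and strand, the answer is not given in the sources used here. The 5 summary lines per file, which name no gene, were left out; 85.2% to 88.9% of the reads listed were in genes. Gene names, positions and lengths came from GENCODE M21 by identifier, which matched 51719 of 51912 (99.63%). Promoter windows came from RefSeq (GRCm38.p6).

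Counts were scaled with TMM, and low genes were removed by filterByExpr (minimum count 10), leaving 11076 genes with 99% of the counts. The test was edgeR's quasi-likelihood test with robust estimation, in 1 fit of the 12 libraries by group (9 residual degrees of freedom, common coefficient of variation 10.6%). P-values were adjusted by Benjamini-Hochberg over all genes tested, with a threshold of 0.05, and "rose", "fell" and "called" refer to it. Separate animals are not named in the labels; p-values may then reflect technical spread between libraries only. Within groups, every pair of libraries differed beyond sampling noise (chi-square over degrees of freedom from 1.59 to 5.94). The floor was 3 counts, which covers counting error only. The versions were edgeR 4.0.16 under R 4.3.3, limma 3.58.1, DESeq2 1.42.0, Python 3.11.15, pandas 2.3.3 and matplotlib 3.10.9. The script was tested on simulated counts.

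The members, the gene lists and the marker lists were chosen with earlier results of these data known. Every member is named, as are up to 4 called genes per list and comparison, by size of fold change, up to 2 abundant ones where none was called, and the 3 genes most alike to each cotransporter. The abundant but uncalled Gphn, Gabbr1, Gabbr2 and Gabrg3, and Oxsr1, were added after their values were seen. Some GABA-A subunit genes are not reported here. The 21 alternatives were other scalings, DESeq2, no filter, a replicate block, each library left out, control 1 and 3 left out, libraries thinned to the shallowest, Y-linked counts as a covariate, and a gene-span trend removed per library, the last chosen after seeing the data.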

Additional observations from a re-analysis of the deposited data

Results flagged for a closer look

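Of 93 groups of 4 libraries checked, 5 held a library far from the other 3 by Dixon's test at the 95% level, where chance gives about 1 in 20 groups. No member was among them. Kctd16 stood at 175.0 CPM in dKO-E 2, against 207 to 214. Slc12a4 was at 8.12 CPM in control 1, against 2.58 to 3.02 in the other controls. Slc12a8 was at 8.27 CPM in control 4, against 13.3 to 13.8. Slc4a8 stood at 86.8 CPM in dKO-N 3, against 55.8 to 60.1, and at 50.6 CPM in dKO-E 2, against 61.5 to 63.4.

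For 8 of the genes examined the effect against control differed between the knockouts by edgeR's test of the difference itself, given as dKO-E minus dKO-N on the log2 scale. The list genes among them had been picked because they were called, and 6.84% of all genes tested were called in this comparison. Slc12a5 was the one member, with 0.95 (adjusted p = 0.00931). The difference was 1.47 for Hap1, 0.64 for Kctd16 and 0.53 for H3f3b (adjusted p = 0.0124, 9.00e-04 and 0.0303). It was -0.45 for Neto2, -0.40 for Kif21a, -0.40 for Trak1 and -0.39 for Mdga2 (adjusted p = 0.00586, 0.0142, 0.00859 and 0.00714). H3f3b is one of the targeted genes. Only Kctd16 was called in all 21 alternatives. Without dKO-N 4 the calls were lost for Slc12a5, Hap1, Kif21a, Neto2 and H3f3b (edgeR adjusted p = 0.170, 0.133, 0.165, 0.0557 and 0.240). With Y-linked counts as a covariate they were lost for Trak1, Mdga2, Neto2, Kif21a and H3f3b (adjusted p = 0.131, 0.0539, 0.0815, 0.1275 and 0.137).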

How the results depend on the processing

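Of 504 fold changes of members (24 results under 21 alternatives), 459 kept their direction and their side of the threshold, 31 lost a call, 1 gained one and 13 changed sign. Of the 13 called results 6 held in all 21: Gabra2, Gabra3 and Gabra5 in each knockout against control. All sign changes were in results that were not called. For Slc12a5 in dKO-E against control the value was 0.093 with library totals, 0.0068 without control 1 and 3, 0.072 with thinned libraries, 0.10 with Y-linked counts as a covariate, and -0.20 to 0.067 with 1 library left out. For Gabrb2 in dKO-N it was 0.045 without control 1 and 3 and -0.14 to 0.0077 with 1 library left out. For dKO-E against dKO-N, leaving out 1 library gave -0.12 to 0.28 for Gabra5, -0.20 to 0.13 for Slc12a2 and -0.067 to 0.12 for Gabra4.

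In dKO-E against control 4 members were called with library totals and 4 without control 1 and 3, and 4 to 7 with 1 library left out; in dKO-N against control 4 to 5, and between knockouts 0 to 1, the 0 without dKO-N 4. Genes called numbered 1255 in dKO-N, 2238 in dKO-E and 758 between knockouts; with 1 library left out 972 to 1298, 1699 to 2753 and 300 to 1036. Without control 1 and 3 they were 756 in dKO-N and 1215 in dKO-E, with thinned libraries 719, 1200 and 320, and with the Y-linked covariate 1325 in dKO-E and 223 between knockouts. Library totals moved the median log2 change of all genes in dKO-E from 0.007 to 0.135 and the share of calls that were higher to 73.9%, from an even split, and in dKO-N from 44.5% to 57.8% and between knockouts from 45.5% to 65.4%. Per kilobase of the whole gene the ranks were Gabra2 1, Gabrb2 2, Slc12a2 3, Slc12a5 4, Gabrb1 5, Gabra5 6 and Gabra3 7. With 1 library left out the log2 ratio of the cotransporters was 1.02 to 1.08 in control, 1.32 to 1.97 in dKO-N and 0.54 to 0.81 in dKO-E. The causes of these changes were not tested.

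Replicate numbers did not pair the libraries: same-numbered libraries of different groups correlated at -0.124 to 0.013 in their deviations from group means, others at -0.103 to 0.227, and 0 of 12 correlated best with their own number. With the number as a replicate block 1065, 1974 and 500 genes were called, and 5, 7 and 1 members, with no member's call changed. Of 28 calls of other named list genes, 9 held under every alternative run. Depth limits Slc12a5, Gabra4 and Gabra5 most, with 9, 25 and 16 counts in their lowest libraries.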
